A study of Canis lupus familiaris with 51 samples.

Results

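The genes described here act in homologous recombination, the repair of broken DNA by copying from an intact sister sequence. The list holds 9 genes: BRCA1, BRCA2, BARD1, BLM, RAD54L, FANCD2, FANCI, RAD51AP1 and EXO1. Members were found by searching the gene name and the description of every probe on the array. Of these 9 genes, 7 had a probe, among 11697 named genes on the array. They were covered by 9 probes, since BARD1 and BLM had a pair of probes each. No probe matched RAD51AP1 or EXO1, so both are not analysed here.

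The study profiled 51 cutaneous mast cell tumors (MCTs) of dogs, each on its own 1-color Agilent canine array. RNA came from the central part of each tumor mass, sampled during surgery, so that every sample is a bulk mixture of neoplastic mast cells with the stroma, vessels and leukocytes around them. The study's reference samples are 5 undifferentiated and 13 differentiated MCTs, which it chose by histological grade and mitotic index. The other 33 tumors were submitted as unknown samples, and the study's class prediction put 7 of them among undifferentiated and 26 among differentiated MCTs. The dogs were of many breeds and 3 to 14 years old, 30 labeled female, 19 male and 2 without a sex. The array labels give case numbers but no class. Reference cases took their class from the study's list, and unknown tumors took theirs from its class prediction plot. Tumor LM0 has no namesake among the study's sample names and was matched by elimination to the 1 undifferentiated reference left over. The reference comparison of each member and the main correlations among undifferentiated tumors are therefore also given without LM0.

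In background terms, a broken DNA end is first trimmed to a strand that can invade an intact copy. BRCA1 with its partner BARD1 marks the damaged chromatin, BRCA2 loads the recombinase onto the exposed strand, and RAD54L is a motor protein that helps the strand invade. BLM is a helicase of the RecQ family that dissolves joined intermediates, and FANCD2 with FANCI forms the clamp that the Fanconi anemia pathway locks onto DNA at crosslinks. Sister sequences exist only after replication, and the genes are known to be expressed mainly in cycling cells.

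Each value below is the brightness of a 60-base probe, and the probes are shown where their letters decide which transcript was read. The BRCA2 and FANCI probes carry differences that passed the test. BARD1 and BLM are shown because their values went their own way, BLM being named only through the probe's description. The sequences are printed 5′ to 3′ as the files give them, and at least 1 forward frame of each holds no stop codon.
BRCA2 A_11_P050561: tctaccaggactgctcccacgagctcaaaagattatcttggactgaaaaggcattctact
FANCI A_11_P0000032047: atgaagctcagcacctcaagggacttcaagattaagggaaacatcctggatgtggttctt
BARD1 A_11_P216778: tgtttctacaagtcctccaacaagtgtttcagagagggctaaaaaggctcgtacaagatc
BLM A_11_P187593: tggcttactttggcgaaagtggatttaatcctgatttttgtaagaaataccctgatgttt

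The array files place the probes by genome coordinates, without naming the build, and no annotation of that build was used here, so exon numbers are not given. The BRCA2 probe lies at chr25:10719933-10719992 on the minus strand. The BARD1 probes lie at chr37:24995015-24995074 and chr37:24948079-24948138, both minus, and only the first has an open frame. RAD54L was read at chr15:17121898-17121957 on the minus strand. The FANCD2 probe, at chr20:11246877-11247903 on the minus strand, spans 1027 bases, more than its own length, so it crosses an intron. FANCI (chr3:55217751-55217810, plus strand) and BLM (chr3:56291495-56291554 and chr3:56269021-56269080, both minus) lie on the same chromosome, 1051211 bases apart at their nearest probes.

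Levels are log2 normalized signals, so a difference of 1 is a fold of 2. Levels of different probes are not comparable with each other, since probes bind with different strength. Between 59.4% and 74.8% of spots per array were well above background, in the scanner software's sense, and the groups overlapped in this share. Of the member probes, 7 were well above background on all 51 arrays, RAD54L on 50 and BRCA1 on 33. The BRCA1 probe reached that level in all 12 undifferentiated MCTs but in only 8 of 13 differentiated references and 13 of 26 predicted differentiated tumors, so its low values are imprecise. None of the probes was saturated on any array. The mast cell markers KIT, CMA1, FCER1A, MS4A2 and HPGDS were well above background on all 51 arrays, and 0 of the 8 mast cell markers measured was called between the reference groups by limma.

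The reference comparison asked which members differ in RNA level between undifferentiated and differentiated MCTs. BRCA1, BRCA2 and FANCI rose in undifferentiated tumors, by 4.05-, 2.65- and 2.53-fold. RAD54L and FANCD2 were higher by 1.67- and 2.32-fold but each missed a part of the call rule, and neither BARD1 nor BLM was called. A probe was called at a limma adjusted p under 0.01 with a fold of at least 2. By this rule 3 of the 9 member probes were called, all raised, against a background of 0.975% of all 43603 probes called raised, 0.871% called lowered and 1.85% in either direction. At an adjusted p under 0.05 with the same fold 4 member probes were raised, where 1.83% of all probes were. In bulk tissue, more RNA per cell and a larger share of cells that express a gene cannot be told apart.

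**Figure D1:**
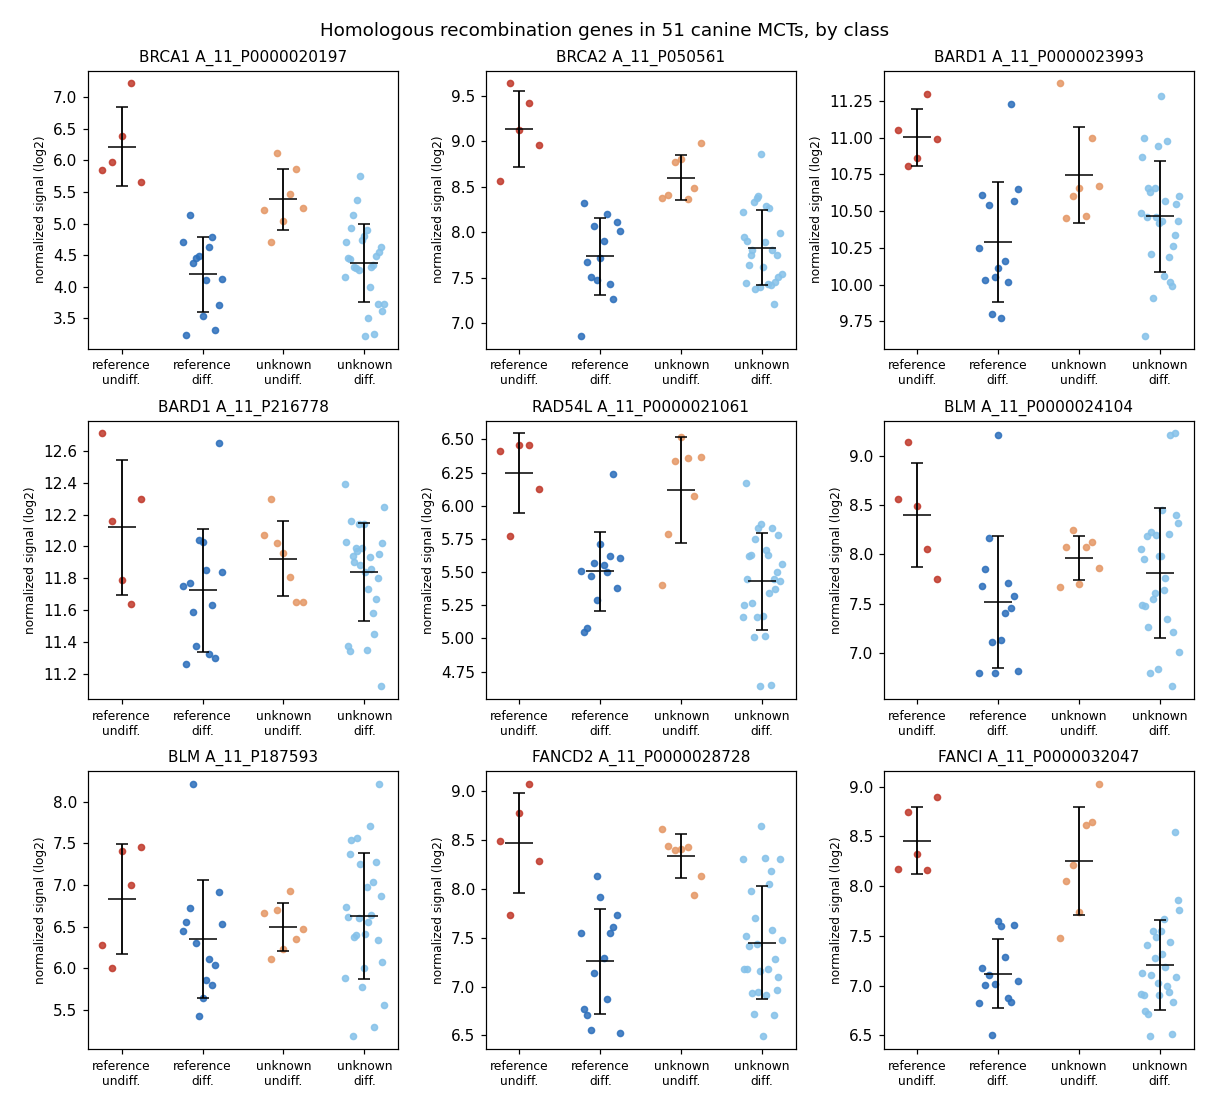
Normalized signal (log2, y axis) of each of the 9 member probes in the 51 tumors, 1 point per tumor, by class (x axis); bars are mean ± SD. The 5 undifferentiated references lie above all 13 differentiated references for BRCA1, BRCA2 and FANCI, while both BLM probes and the brighter BARD1 probe (A_11_P216778) overlap more, with 3, 9 and 7 differentiated references above the lowest undifferentiated one.

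BRCA1, the tumor suppressor that directs broken ends toward recombination, had a log2 difference of 2.02 as normalized here, but of 0.54 with normexp background correction, where BRCA2 stood at 1.06. Its levels in the undifferentiated references were 5.66 in T90, 5.84 in T73, 5.97 in T57, 6.39 in T9 and 7.22 in LM0. In the differentiated references it ran from 3.24 to 5.14, with a median of 4.37. The groups did not overlap, and LM0 stood above the rest. The means were 6.22 ± 0.62 (SD, n = 5) and 4.20 ± 0.59 (SD, n = 13), and the difference (SE 0.31, 95% confidence interval 1.37 to 2.66) had a limma adjusted p of 0.000702. Without LM0 the difference was 1.77 with an adjusted p of 0.00314. Each of the 4 scan sessions that held both reference groups had 1 undifferentiated tumor and 1 to 4 differentiated ones. The difference within them was between 1.50 and 2.68, the highest from T9 against a single differentiated tumor. With session as a block it was 1.93 with an adjusted p of 0.0132, past the limit of the call.

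BARD1, which forms a ubiquitin ligase with BRCA1, was not called by either probe. Its brighter probe, A_11_P216778, read 11.64 in LM0, 11.79 in T90, 12.16 in T57, 12.30 in T73 and 12.71 in T9, against 11.26 to 12.65 (median 11.75) in the differentiated references. The ranges overlapped almost entirely, and 7 of 13 differentiated references lay above the lowest undifferentiated one. The log2 difference was 0.40 (SE 0.21, confidence interval -0.04 to 0.83, adjusted p = 0.255), and 0.52 without LM0 (adjusted p = 0.179). The second probe, A_11_P0000023993, ran from 10.81 to 11.30 in the undifferentiated and from 9.77 to 11.23 in the differentiated references. Its difference was 0.71 (SE 0.19, adjusted p = 0.0302), under the fold required, and 0.75 without LM0 (adjusted p = 0.0486). The difference between the probes was not tested. Across the 39 differentiated tumors they correlated at r = 0.86.

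BRCA2, the carrier of the recombinase, rose as BRCA1 did. It read 8.56 in T73, 8.96 in T57, 9.13 in T90, 9.42 in T9 and 9.64 in LM0. The differentiated references lay between 6.86 and 8.32 with a median of 7.72, so the groups did not overlap. Means were 9.14 ± 0.42 (SD, n = 5) and 7.73 ± 0.42 (SD, n = 13), a difference of 1.41 (SE 0.22, interval 0.95 to 1.86, adjusted p = 0.000788). It was 1.28 without LM0 (adjusted p = 0.00385). Within scan sessions, each with 1 undifferentiated tumor, it lay between 0.77 and 2.56. With session as a block it was 1.38 with an adjusted p of 0.0186.

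RAD54L, the motor that works beside the recombinase, was higher in undifferentiated references without reaching the fold required. Its levels were 5.77 in T73, 6.13 in T90, 6.41 in LM0 and 6.46 in both T57 and T9. The differentiated references ran from 5.05 to 6.24 around a median of 5.51. Only 1 of the 13 lay above the lowest undifferentiated tumor. The difference was 0.74 (SE 0.16, interval 0.41 to 1.07) with an adjusted p of 0.00818, and 0.70 with an adjusted p of 0.0267 without LM0.

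BLM, the gene mutated in Bloom syndrome, varied widely among differentiated references. Its brighter probe, A_11_P0000024104, read 7.75 in T57, 8.05 in T73, 8.49 in T90, 8.56 in LM0 and 9.14 in T9. The differentiated references spread from 6.79 to 9.21 with a median of 7.46, and the highest of them, T130, exceeded every undifferentiated reference. The difference was 0.89 (SE 0.32, interval 0.21 to 1.56, adjusted p = 0.101). Leaving out T130 raised it to 1.03 with an adjusted p of 0.0144, still not a call, and leaving out LM0 gave 0.84 with an adjusted p of 0.189. The second probe gave 0.48 (SE 0.36, interval -0.27 to 1.22, adjusted p = 0.447), and 0.61 without LM0 (adjusted p = 0.391).

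FANCD2 and FANCI form a clamp together, but only FANCI was called. FANCD2 read 7.73 in T73, 8.29 in T57, 8.49 in T90, 8.78 in T9 and 9.08 in LM0, against 6.53 to 8.13 (median 7.29) in the differentiated references. Here T73 lay among the differentiated tumors, 3 of which were higher. The difference of 1.21 (SE 0.27, interval 0.64 to 1.78) had an adjusted p of 0.0106, just past the limit. It passed without T73 (1.40, adjusted p = 0.00642), without T84 (1.27, adjusted p = 0.00901) and without T130 (1.29, adjusted p = 0.00472), and it was 1.06 with an adjusted p of 0.0391 without LM0.

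FANCI read 8.16 in T73, 8.17 in T57, 8.32 in T90, 8.74 in T9 and 8.90 in LM0. The differentiated references lay between 6.50 and 7.65, with a median of 7.05 and no overlap. The difference of 1.34 (SE 0.18, interval 0.96 to 1.72) had the smallest adjusted p among the members, 0.000278. It was between 1.13 and 2.24 within scan sessions, each with 1 undifferentiated tumor. With session as a block it was 1.37 with an adjusted p of 0.00565, the only member probe still called, and without LM0 it was 1.23 with an adjusted p of 0.00151. Across all probes, 0.825% had all 5 undifferentiated references above all 13 differentiated ones, as 3 of the 9 member probes did.

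**Figure D2:**
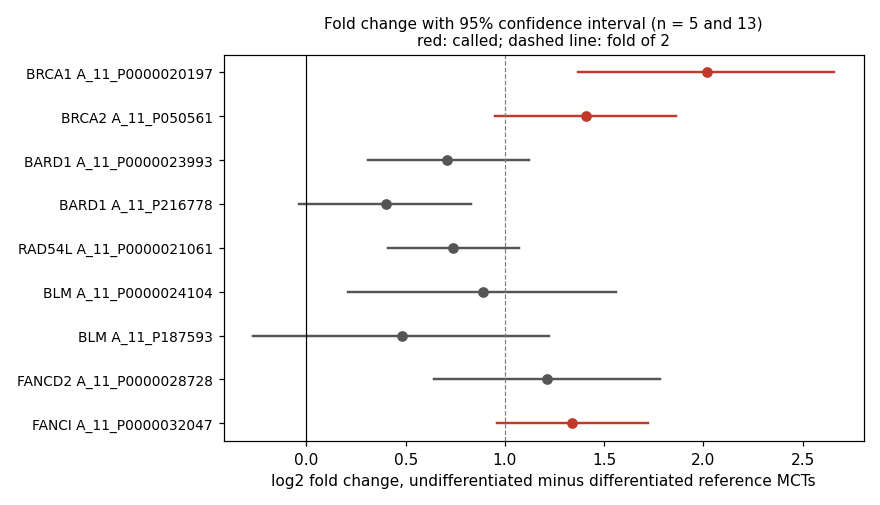
Log2 fold change of each member probe (x axis, undifferentiated minus differentiated references) with its 95% confidence interval from limma, n = 5 and 13. Red marks the 3 called probes, at 2.02 for BRCA1, 1.41 for BRCA2 and 1.34 for FANCI, and the intervals of 1 BARD1 and 1 BLM probe cross 0.

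In the unknown samples the levels are a description, since their classes were predicted from the same arrays. BRCA1 averaged 5.38 ± 0.49 (SD) in the 7 predicted undifferentiated and 4.37 ± 0.62 in the 26 predicted differentiated tumors. The order of its class means was reference undifferentiated, unknown undifferentiated, unknown differentiated, reference differentiated. The last pair, at 4.37 and 4.20, lay within their spread. BRCA2 kept the same order, with 8.60 ± 0.25 in predicted undifferentiated and 7.83 ± 0.41 in predicted differentiated tumors.

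All 7 predicted undifferentiated tumors exceeded every differentiated reference for BRCA2, 6 of them did so for FANCI and FANCD2, 5 for BRCA1 and 4 for RAD54L. For the brighter probes of BLM and BARD1 none did. FANCI averaged 8.25 ± 0.54 and 7.21 ± 0.45 in the predicted classes, FANCD2 8.34 ± 0.22 and 7.45 ± 0.58, and RAD54L 6.12 ± 0.40 and 5.43 ± 0.36. For BARD1 (A_11_P216778) the predicted classes lay at 11.92 ± 0.24 and 11.84 ± 0.31. BLM (A_11_P0000024104) lay at 7.97 ± 0.22 and 7.81 ± 0.66, and its second probe was 0.13 lower in the predicted undifferentiated tumors. These last differences were within the SD of either class.

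Single tumors departed from their class. The predicted differentiated tumor T135, from an American Staffordshire dog, read 8.54 for FANCI and 8.86 for BRCA2. It was the only one of the 26 above the lowest undifferentiated reference for either gene, and likewise for BRCA1, at 5.75. The undifferentiated T49 was the lowest of its class for FANCI, at 7.48. BLM was highest in 3 differentiated tumors, T6 (9.23), T130 (9.21) and T134 (9.21), from a Cane Corso, a Boxer and a Dachshund. Both BLM probes ranked these tumors at the top, with 8.22, 8.22 and 7.71 on the second probe. BRCA2 and FANCI read 8.40 and 7.55 in T6, 8.32 and 7.60 in T130, and 7.54 and 6.75 in T134, all below the lowest undifferentiated reference.

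Members were compared across tumors within each class, because BRCA1, BRCA2 and FANCI separate the classes and a pooled correlation would mostly restate that. These coefficients are descriptions across tumors that share labeling and scan sessions, with no test. Among the 39 differentiated tumors BRCA2 and FANCI followed each other most closely (r = 0.75). BRCA1 correlated with FANCI at 0.61 and with BRCA2 at 0.54, FANCD2 with FANCI at 0.58 and with BRCA2 at 0.56, but with BRCA1 at only 0.21. RAD54L, BARD1 and BLM stood apart, with coefficients between -0.19 and 0.26 against the other genes by their brightest probes. BRCA1 and BARD1, which act as a pair in the cell, reached only 0.22 with the brighter BARD1 probe and 0.35 with the other. BLM and FANCI, both on chromosome 3, gave 0.12 and 0.20 for the BLM probes, which agreed at 0.94 with each other.

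Among the 12 undifferentiated tumors the coefficients were higher for most pairs, on a small n. These tumors pool 5 references with 7 predicted ones, and each member probe had a higher mean in the references. For BRCA1 the means were 6.22 and 5.38, for BRCA2 9.14 and 8.60. The part of that difference in the coefficients was not tested. BRCA1 and BRCA2 correlated at 0.90, and RAD54L with BRCA2 at 0.64 where the differentiated tumors gave -0.05. The median over the 21 pairs of brightest probes was 0.58 in the undifferentiated and 0.12 in the differentiated tumors. The difference was not tested. Without LM0 the 11 other undifferentiated tumors gave 0.84 for BRCA1 with BRCA2, 0.67 for RAD54L with BRCA2, and a median of 0.58. Other pairs moved further when LM0 was left out. The brighter BARD1 probe went from 0.26 to 0.74 with BRCA1 and from 0.22 to 0.58 with BRCA2. FANCD2 with BRCA1 fell from 0.71 to 0.50.

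**Figure D3:**
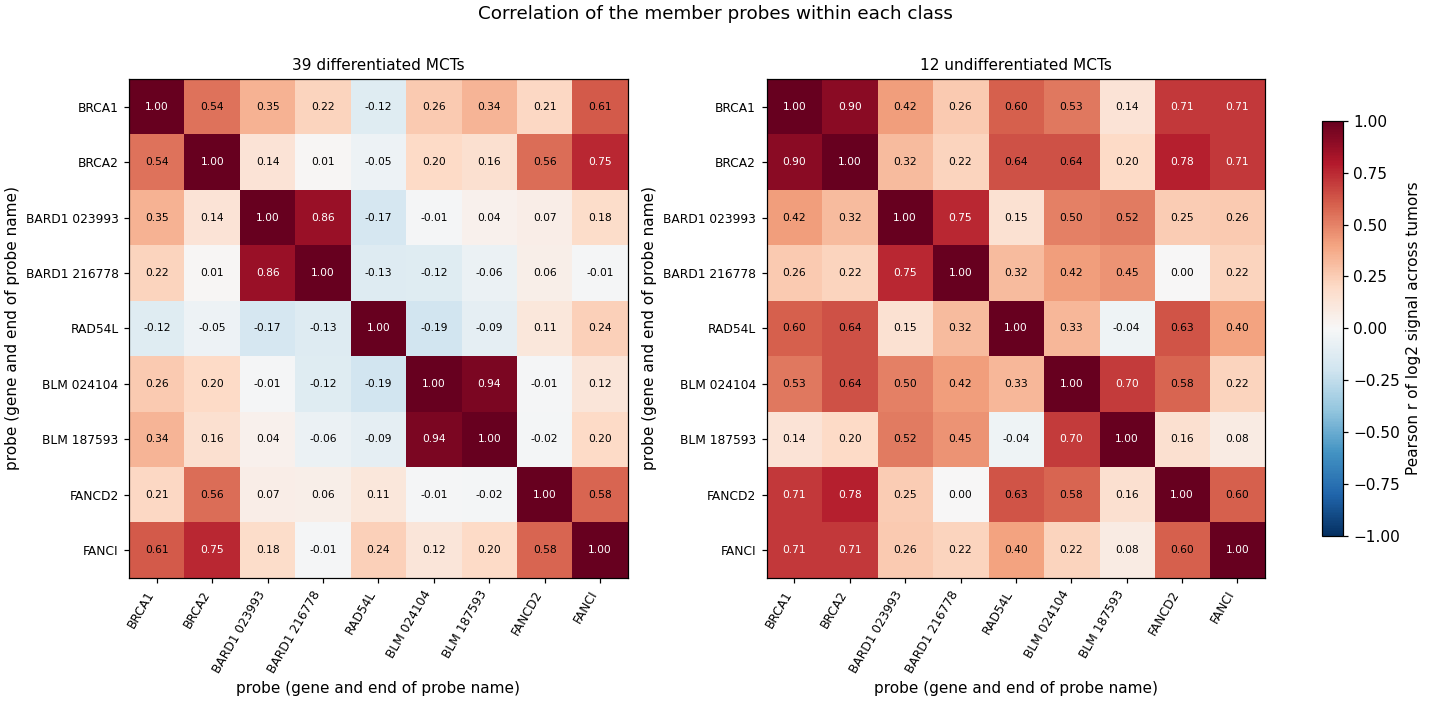
Pearson r of log2 signal between member probes across 39 differentiated (left) and 12 undifferentiated MCTs (right), colored from -1 to 1; both axes list the probes. In the differentiated tumors BRCA1, BRCA2, FANCD2 and FANCI hold the high values between genes (0.75 for BRCA2 with FANCI, but 0.21 for BRCA1 with FANCD2), and BLM, BARD1 and RAD54L are near 0 with most others.

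Because the members are tied to replication, they were set against a list of replication and mitosis genes that holds none of them. The study chose its reference groups partly by mitotic index, so a rise of this list between them was partly fixed in advance. In the reference comparison 25 of the 30 measured genes of that list rose and none fell, with a median log2 fold change of 2.16, while all named genes had a median of 0.04 with 1.61% called raised and 1.03% called lowered. CDC6 and CDC45 of the replication machinery rose by 3.53 and 3.37 on the log2 scale. The mitotic genes CDK1, CCNA2, TTK and KIF11 rose by 3.28 to 3.46, as did RRM2 (3.51) and TOP2A (3.37) for nucleotide supply and DNA untangling. The probes of CDC6, RRM2 and TOP2A were well above background on only 6, 4 and 9 of the 13 differentiated references, so their folds are imprecise. FOXM1, a factor that drives mitotic genes, rose by 3.03 and CCNB2 by 3.02. The median of the 7 members by their brightest probes was 1.21, with 3 of 7 raised. With scan session as a block, 18 of the 30 were called.

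Across the 39 differentiated tumors the mean of these 30 genes correlated with FANCI at r = 0.70, FANCD2 at 0.69, BRCA1 at 0.66 and BRCA2 at 0.58. Without the 2 tumors farthest from the median of that mean the values were 0.72, 0.66, 0.63 and 0.56. Over all 39 it correlated with RAD54L at 0.10, with the brighter BARD1 probe at 0.23 and with the brighter BLM probe at 0.01. Without the same 2 tumors these values were 0.05, 0.11 and -0.06. In the 12 undifferentiated tumors, references and predicted ones pooled, RAD54L gave 0.74, the brighter BLM probe 0.70 and the other BLM probe 0.20. BRCA1 and BRCA2 gave 0.89 and 0.94 there, and 0.84 and 0.91 without LM0. Without LM0 RAD54L gave 0.76, and the BLM probes 0.66 and 0.40. FANCI gave 0.56 in the 12 tumors and 0.46 without LM0, and FANCD2 gave 0.69 and 0.53. The brighter BARD1 probe gave 0.36 in the 12 tumors and 0.71 without LM0, the other BARD1 probe 0.36 and 0.42. The 10 named genes apart from the members whose pattern over the 51 tumors was most like that of the members, by the median r with the 7 brightest probes, were TTK, CDC45, SPAG5, NDC80, POLE, BUB1B, E2F8, NUF2, KIF11 and CDK1, several of which belong to the replication and mitosis list. Their median r lay between 0.79 and 0.81 with both classes pooled, and between 0.43 and 0.61 within the differentiated tumors. Over the 51 tumors each followed some member only weakly, with a lowest r between 0.14 and 0.30.

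**Figure D4:**
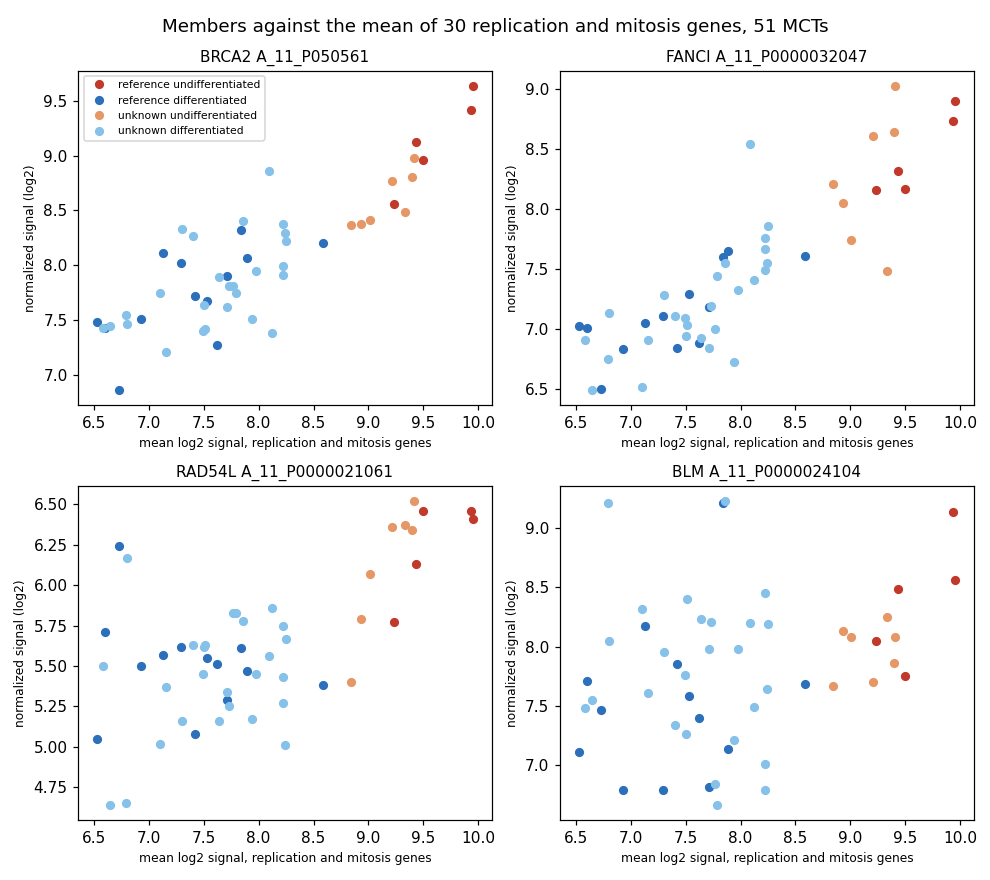
Log2 signal of BRCA2, FANCI, RAD54L and BLM (y axes) against the mean log2 signal of 30 replication and mitosis genes (x axes), 1 point per tumor, colored by class. BRCA2 and FANCI rise along the x axis also among differentiated tumors (r = 0.58 and 0.70), where RAD54L and BLM do not (0.10 and 0.01).

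Other genes of the recombination pathway were counted in the same comparison. Of 54 other homologous recombination genes, 35 were measured. By their brightest probes 4 were called raised and none lowered, with a median of 0.34, a share of 11.4% against 1.61% of all named genes. Among those raised were the checkpoint kinases CHEK1 (1.62, SE 0.29, adjusted p = 0.00246) and CHEK2 (1.09, SE 0.21, adjusted p = 0.00443). PSMC3IP, a partner of the meiotic recombinase machinery, rose by 1.04 (SE 0.16, adjusted p = 0.000935). Without T9 or without LM0 only 2 genes of the list were called, with CHEK2 and PSMC3IP lost, and with scan session as a block only 1 was. The other 31 were not called. Among these, and named after their values were seen, HELLS, a chromatin remodeler, stood at 2.34 (adjusted p = 0.0148) and RAD50, which holds broken ends, at 1.32 (adjusted p = 0.0241), while the damage kinase ATM was lowest at -0.49 (adjusted p = 0.0946).

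Of 22 other Fanconi anemia and crosslink repair genes, 17 were measured and 2 were called raised, with none lowered and a median of 0.10. This was a share of 11.8% against 1.61% of all named genes. FANCM, a DNA translocase that brings the pathway to stalled forks, differed by 2.81 (SE 0.47, adjusted p = 0.00141), though its probe was well above background on only 7 of the 13 differentiated references. UBE2T, the conjugating enzyme that serves FANCD2 and FANCI, rose by 2.51 (SE 0.39, adjusted p = 0.000931). FANCA, of the core complex and named after its value was seen, stood at 1.47 with an adjusted p of 0.0125. Neither FANCM nor UBE2T was called with scan session as a block, where 0 of the 17 were.

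Of 18 genes of end joining and single-strand break repair, the routes that need no sister copy, 14 were measured. limma called 0 of them, with a median of 0.22, 3 had an unadjusted p under 0.05, and the methods' t-test called 0 with Benjamini-Hochberg adjustment and 0 without it, a setting the methods do not use. Their differences ran from -0.30 to 0.66. An unadjusted limma p under 0.05 was found for 15 of 35 other recombination genes and 8 of 17 Fanconi genes. For replication and mitosis it was 30 of 30, and the share over all probes was not counted. Named for their role and not by rule, XRCC5, XRCC6 and PRKDC, the subunits of the DNA-dependent protein kinase, stood at 0.11, -0.30 and 0.34. Whether the recombination list differs from this one was not tested.

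**Figure D5:**
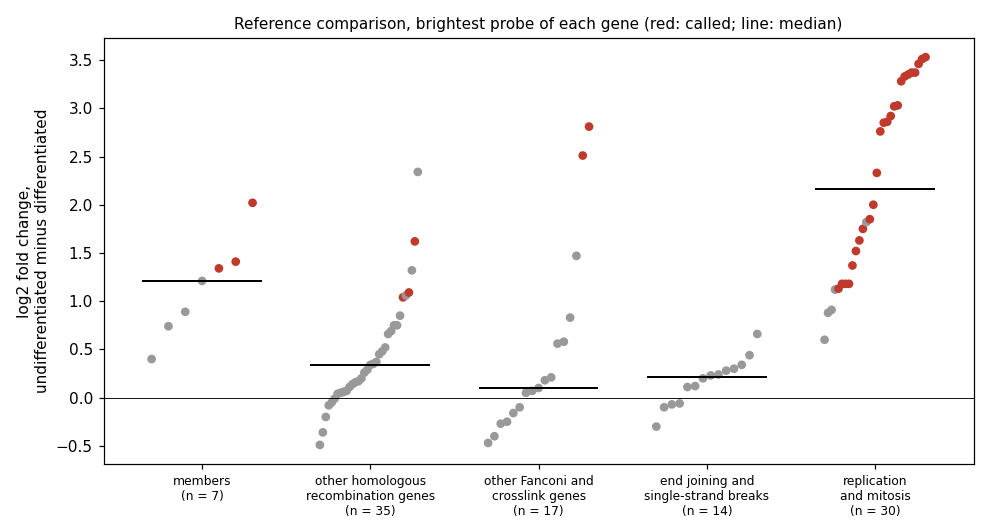
Log2 fold change (y axis) of each measured gene, undifferentiated minus differentiated references, by gene list (x axis), with the brightest probe of each gene and 1 called gene of the homologous recombination list not drawn. Red points were called, black lines are medians: 1.21 for the 7 members, 0.34, 0.10 and 0.22 for the other repair lists, and 2.16 for replication and mitosis.

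Markers of other cells were compared between the reference groups. Of these only CSF1R, 1 of the 7 macrophage markers, was called, at -1.92 in undifferentiated tumors (adjusted p = 0.00628). The mean of the macrophage list ran from 9.36 to 10.93 in undifferentiated and from 9.85 to 11.31 in differentiated references. Of the 10 fibroblast and matrix markers, all well above background on some array, 0 were called and their median log2 fold change was -0.91. The mean level of that list was 11.71 to 13.81 in undifferentiated and 11.39 to 14.46 in differentiated references. The 3 neutrophil markers measured had a median of 3.78 with 0 called, and their mean ran from 7.65 to 15.50 against 6.41 to 11.79. The 4 keratinocyte markers measured had a median of -2.27 with 0 called, and their mean ran from 1.82 to 14.50 against 1.72 to 15.55. The group medians of that mean were far apart, at 2.26 in undifferentiated and 13.69 in differentiated references. The part of these cells in the members' differences was not tested.

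Sex and age of the dogs were compared over all classes with class as a covariate. No member probe was called between 30 females and 19 males by limma, where 0.0275% of all probes were called. Without adjustment 5 of the 9 probes, from 4 genes, had a p under 0.05, all lower in females, against 5.64% of all probes in either direction and 3.8% lower in females. BRCA2 was lower in females by a log2 difference of -0.41 (SE 0.11, interval -0.63 to -0.19) with an adjusted p of 0.447, and BRCA1 by -0.58 (SE 0.17, interval -0.91 to -0.25) with an adjusted p of 0.633. FANCI stood at -0.36 (SE 0.12, adjusted p = 0.799). For BRCA1, BRCA2 and FANCI the female mean was below the male mean in each of the 4 classes, of which both undifferentiated ones hold only 2 females each. BRCA2 averaged 7.61 in 8 females and 7.94 in 5 males among the differentiated references. BLM stood at -0.47 (SE 0.18, adjusted p = 0.799), and BARD1 and RAD54L were between -0.05 and 0.02.

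With age, known for 49 dogs, no member slope passed. limma called 0 of 43603 probes, a background of 0%, and 0 of the 9 member probes had an unadjusted p under 0.05, where 2.71% of all probes did. Member slopes ran from -0.048 per year for BLM (interval -0.117 to 0.021) to 0.021 per year for BARD1 (interval -0.017 to 0.060), in log2 units. Slopes of the size these intervals span could not be told from 0 with this number of arrays.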

How the data were processed

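RNA of 51 MCTs was labeled with Cy3 and hybridized to Agilent canine arrays, 1 tumor per array. Per the file headers, the authors' Feature Extraction software gave a processed intensity per spot, background-subtracted within the array and not normalized between arrays. The genome build of the probe positions is not given in the sources used here. The authors also deposited a table of intensities that they quantile-normalized over the 51 arrays, with spots not found left blank. The fold changes and levels here were computed from the deposited intensities on the log2 scale.

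Tests were run in limma 3.58.1 under R 4.3.3, and figures were drawn with matplotlib 3.10.9. The processed intensity was taken as log2, outlier-flagged and control spots were left out, arrays were quantile-normalized together, and spots of a probe were averaged, which gave 43603 probes. limma compared the 18 reference arrays with Benjamini-Hochberg adjustment over all probes. A gene of several probes was represented by its brightest. Each tumor is 1 dog, so p-values measure the spread between tumors. The number of arrays, the background and the scan sessions limit the precision. The limma fit of the reference groups and the t-test were tested on simulated arrays, and the other steps were not.

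Members, lists and tests were chosen with earlier results of these data known. Named genes are all members, the called genes of each list (at most 10 by fold change) and the 10 genes most correlated with the members. Apart from cell type markers, others are marked in the text as named outside this rule. The values of 1 called gene of the homologous recombination list and the sequence of 1 member probe are not reported here. The labels give no class, so the class of each case number was taken from the study's list of reference cases and, for unknown samples, from its class prediction, which used the same arrays. Alternatives were another normalization, background correction, filter, batch term, covariate, test or threshold, the authors' table and leaving out each reference sample. Setting spots not found to missing, leaving out samples for the gene lists, and leaving out LM0 or other tumors for the correlations, were chosen after seeing the data. Unnamed probes and histological grade were not analysed here.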

Additional observations from a re-analysis of the deposited data

How the results depend on the processing

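Each member probe kept its direction in the reference comparison under all 31 alternatives, but some of these could not change it. The filter on dim probes, the t-tests and the looser threshold use the same log2 differences. Another 18 left out 1 reference sample each. With normexp background correction, which adds an offset of 50 and so shrinks the folds of dim probes, 1 member probe and 1 member gene were called in place of 3, BRCA1 falling to 0.54 and FANCI to 0.90 under the fold limit. With scan session as a fixed block 1 member probe and 1 member gene were called (FANCI), 19 in place of 31 genes of the 4 lists, 1 in place of 4 of homologous recombination and 0 in place of 2 of Fanconi anemia; LM0 then adds nothing, as its session holds no differentiated reference. Leaving out each reference sample gave 3 to 4 member probes and 3 to 4 member genes, 27 to 32 genes of the lists, 2 to 5 of homologous recombination, 2 to 3 of Fanconi anemia, 0 of end joining and 23 to 26 of replication and mitosis. FANCD2 was also called under 7 alternatives, and 869 probes in all were called after a filter on dim probes against 805 without. Across all probes the calls fell to 416 with normexp and 345 with the session block, and rose to 2055 with an unpaired t-test without adjustment and 1757 at an adjusted p under 0.05. The median correlation of members was 0.41 over the 51 tumors, 0.12 within the 39 differentiated and 0.58 within the 12 undifferentiated tumors, and 0.58 again without LM0. Sex and age gave 0 member calls under each of their 4 alternatives. The cause of the loss under the session block was not tested. No paired analysis was possible because the replicate numbers follow accession order and pair no samples; the shared scan sessions entered as the block above. Background limits the BRCA1 values most directly, since its probe was well above background on 33 of 51 arrays, but normexp also lowered RAD54L to 0.29 and the second BLM probe to 0.22.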

Other observations

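BLM was also described on its own, a choice made after its values were seen. Over the 51 tumors the named genes closest to its brighter probe were SLC35A1 (r = 0.73), DHX9 (0.72), CHCHD4 (0.71), RBM25 (0.70) and ATF7IP (0.69). DHX9 is an RNA and DNA helicase and RBM25 a splicing factor. The lowest coefficients were those of TMEM47 (-0.70), DST (-0.67), DOCK9 (-0.65), CMTM8 (-0.65) and MTCH1 (-0.63). Within the 39 differentiated tumors SLC35A1 gave 0.72 and TMEM47 -0.75. In the same tumors the brighter BLM probe correlated at 0.44 with the mean of the mast cell markers. It gave -0.44 with that of the fibroblast and matrix markers, while FANCI gave 0.22 and -0.32 with these means. That BLM probe also gave -0.46 with neutrophil, -0.40 with endothelium, -0.39 with keratinocyte and 0.22 with eosinophil markers. All marker lists named here were picked after their values were seen. FANCD2 gave -0.60 with the mean of the macrophage markers and 0.57 with that of the keratinocyte markers in those tumors, where FANCI, its partner, gave -0.26 and 0.12. The share of spots well above background correlated with BLM at -0.39 over the 51 tumors and with BRCA2 at -0.01.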
